A study of Mus musculus with 20 samples.

Results

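Among 20 arrays of hydrogen peroxide-treated C2C12 myotubes, the replicate 1 set was compared with replicates 2 to 4. The replicate 1 set held 5 arrays, 4 titled replicate 1 at 0, 1, 100 and 1000 µM H2O2 and 1 array at 10 µM whose title gives no replicate number. The other 15 arrays were titled replicates 2, 3 and 4 and covered the same 5 doses, so each dose had 4 arrays. The members were chosen from measured values, because the arrays titled 1 stood apart from the others along the first principal component and the unnumbered 10 µM array lay with them. No label or file header says what the replicate number stands for, whether a culture, an RNA extraction, a labelling or a scan. The study's text calls the replicates independent without saying what separates them.

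The label was checked against sarcomere genes: of 39 on the array 37 passed the filter, and Myh2 and Tmod4 were under its level on all 16 numbered arrays used for tests. C2C12 is an established mouse myoblast line, here kept for 96 h in medium with 2% horse serum to form myotubes. For all 20 arrays the myotubes then received 0, 1, 10, 100 or 1000 µM H2O2 for 2 h in medium with 0.5% horse serum, the untreated ones included. Total RNA was hybridised to Affymetrix Mouse Genome 430A arrays, which carry 22690 probe sets read out as 1 fluorescence signal each. No genotype, clone, passage or plating density is given in the labels for either group.

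When serum is withdrawn, confluent C2C12 myoblasts leave the cell cycle, switch on myogenin and then contractile genes, and fuse into multinucleated myotubes. Some cells stay mononucleated: reserve cells, which resemble quiescent satellite cells, lie among the myotubes, as do cells that have not yet left the cycle. Insulin-like growth factors and their binding proteins drive and tune this process, and a collagen-rich matrix is laid down around the cells.

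The arrays titled 1 and the unnumbered array had first-component scores of 27.62 to 42.47, against -16.08 to -6.22 for the 15 arrays titled 2 to 4. That component held 28.2% of the variance, and on the second, at 15.9%, the 1000 µM arrays of both groups lay lowest. The untreated replicate 1 array lay farthest out, at 42.47, and also had the lowest highest signal of all arrays, 11649, and the highest median signal, 185.2. Pairs of arrays within the replicate 1 set correlated at 0.953 to 0.981 over the tested probe sets, pairs within replicates 2 to 4 at 0.964 to 0.990, and pairs across at 0.934 to 0.968. No 2 of the 20 arrays held identical values.

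Replicate 1 and replicates 2 to 4 were compared on the 16 numbered arrays at 0, 1, 100 and 1000 µM, 4 against 12, with dose as a factor in the limma fit. The differences below are replicate 1 minus replicates 2 to 4 on the log2 scale, with standard errors from that fit. A probe set was tested where its signal passed the 40th percentile of its array on at least 4 arrays, which left 14379, and a gene was represented by its brightest tested probe set. Calls at an adjusted p under 0.05 describe the split that chose the arrays and support nothing beyond it, so no p-value is given for a single gene. Of 8159 genes, 1405 (17.2%) were called higher in replicate 1 and 1911 (23.4%) lower. Over probe sets, 2754 (19.2%) were higher and 3041 (21.1%) lower.

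Most of the called differences were small. The called higher genes had a median difference of 0.35 and 47 of them reached 1, a doubling of signal. The called lower genes had a median size of 0.37, and 93 of them reached 1. At all 4 doses the replicate 1 array lay above every other array of its dose for 793 genes (9.72%) and below every one for 1116 (13.7%). For 324 genes (3.97%) all 4 replicate 1 arrays lay above all 12 others whatever the dose, and for 569 (6.97%) below. Over probe sets these shares were 4.59% above and 5.99% below. Where a gene is said below not to overlap, 3.97% above and 6.97% below are the shares over all genes. Most named genes were picked by size of difference, so their lack of overlap follows in part from that choice.

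The same comparison between single replicate numbers gave 3960 called probe sets (27.5%) for 1 against 2, 4078 (28.4%) for 1 against 3 and 3799 (26.4%) for 1 against 4. For 3 against 2, 4 against 2 and 4 against 3, limma called 0 probe sets each (0.0%), with 282, 436 and 169 of the 14379 at an unadjusted p under 0.05. The calls arose in the comparisons that held the arrays titled 1. Those arrays were chosen because they stood apart, so these counts describe that choice and support nothing beyond it.

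The 10 µM arrays entered none of these fits. Because the unnumbered array was placed with replicate 1 by its values, its agreement with the calls follows from that choice. It gives the calls no further support. The unnumbered array differed from the mean of the 3 numbered 10 µM arrays in the same direction for 2566 of the 2754 probe sets called higher (93.2%) and for 2756 of the 3041 called lower (90.6%). Among the 8584 probe sets not called, 53.6% had the same sign. It lay above all 3 numbered 10 µM arrays for 81.8% of the higher probe sets, and below all 3 for 79.3% of the lower ones. Its signals for 12 of the genes named below are in the plots of signal by array.

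The insulin-like growth factor genes stood among the largest lower differences at high signal. Of 10 tested members, 7 were called lower in replicate 1 (70.0%, against 23.4% of all genes) and 0 higher. The median difference was -0.53, against -0.02 over all 8159 genes. The summed signal of the list was 14114 to 14908 on the 4 replicate 1 arrays and 21590 to 24008 on the 12 others, with no overlap. The 7 were the 2 ligands Igf1 and Igf2 and the 5 binding proteins Igfbp2, Igfbp4, Igfbp5, Igfbp6 and Igfbp7.

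Igfbp2, a secreted binding protein that holds IGFs away from their receptor, had signals of 1232, 1339, 1266 and 1697 in replicate 1 at 0, 1, 100 and 1000 µM. In replicates 2 to 4 its lowest signal was 3528, its median 4142 and its highest 4754, a difference of -1.57 ± 0.07 (SE). Every replicate 1 signal was thus below every signal of the others, whatever the dose. Igfbp4, another inhibitory binding protein, had 852, 721, 797 and 1000 in replicate 1, against 1789 to 2352 with a median of 2144 in replicates 2 to 4, a difference of -1.34 ± 0.07. All 5 other probe sets of Igfbp4 were also called lower.

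Igf1, the ligand that muscle cells make for themselves, had 108, 126, 82.4 and 114 in replicate 1, against 182, 287 and 319 as lowest, median and highest in replicates 2 to 4 (-1.35 ± 0.11). Both its other probe sets were called lower as well, and 1 of its replicate 1 signals was under the level of the filter. Igfbp7, a matrix-bound relative, had 3313, 3168, 3638 and 4049, against 4843, 5654 and 6665 (-0.70 ± 0.06). Igfbp5, the binding protein that C2C12 cells switch on as they differentiate, differed by -0.53, and Igf2 by -0.22. The receptors and the adaptor were not called: Igf1r differed by 0.04, Igf2r by 0.23 and Irs1 by -0.15.

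**Figure D1:**
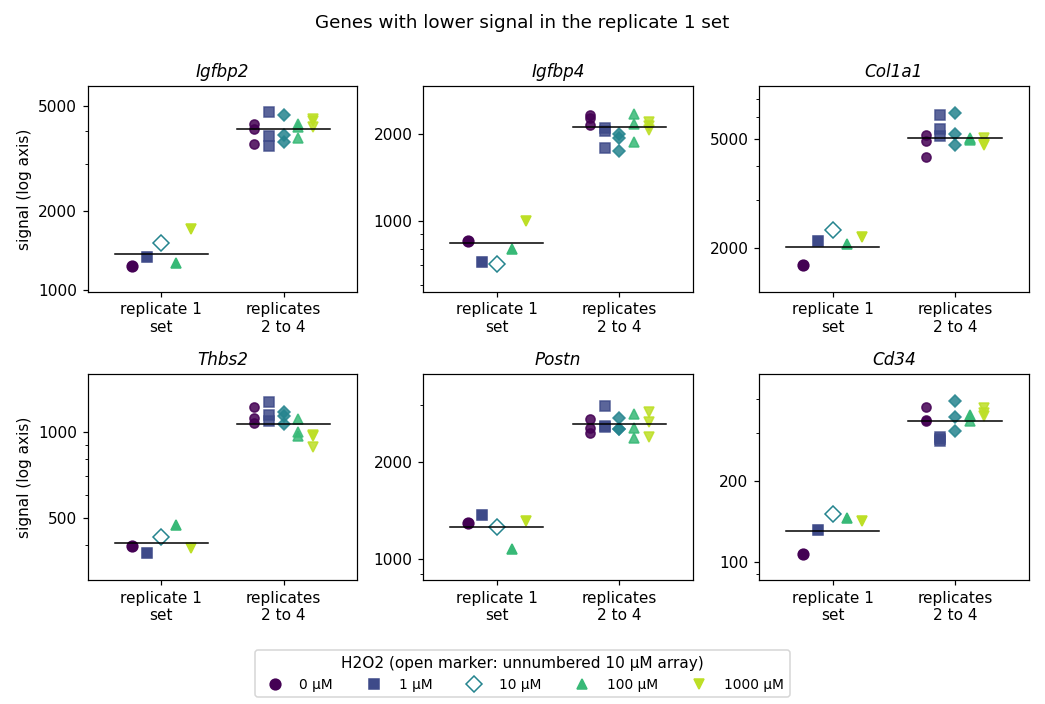
Signal per array on log axes for 6 genes called lower, with the replicate 1 set on the left and replicates 2 to 4 on the right of each panel, markers by H2O2 dose, and lines at the geometric means of the numbered arrays without 10 µM. In all 6 panels every array of the replicate 1 set, the open 10 µM marker included, lies below every array of replicates 2 to 4.

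Collagen and matrix genes were lower in replicate 1 across the list. Of 39 tested members 28 were called lower (71.8%, against 23.4% of all genes) and 2, Lamb1 (0.51) and Ogn (0.20), higher. For 24 of the 39, against 13.7% of all genes, the replicate 1 array lay below every other array of its dose at all 4 doses. The median difference was -0.37, and by dose -0.40 at 0 µM, -0.46 at 1 µM, -0.44 at 100 µM and -0.20 at 1000 µM. Under quantile normalization the list gave 28 lower, 3 higher and a median of -0.29. In RNA from whole cultures, fewer cells of a type and less RNA per cell cannot be told apart.

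Col1a1, a chain of the main fibrillar collagen, had 1734, 2127, 2069 and 2196 in replicate 1, against 4309, 5015 and 6120 as lowest, median and highest in replicates 2 to 4 (-1.32 ± 0.06). Its partner chain Col1a2 had 5099, 4894, 4955 and 5323, against 6644, 7460 and 9160 (-0.59 ± 0.06). Both genes parted the groups without overlap, with the larger gap at Col1a1. Each has a further probe set, and both of these were called lower too.

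Thbs2, a matricellular protein made by mesenchymal cells, had 397, 378, 471 and 393, against 884, 1081 and 1268 (-1.38 ± 0.08). Postn, a matricellular protein of fibroblasts, had 1294, 1377, 1078 and 1320, against 2374, 2578 and 2991 (-1.06 ± 0.07). Neither gene overlapped between the groups. The proteoglycan Dcn differed by -0.86 ± 0.10, the elastic-fibre protein Fbln5 by -0.75 ± 0.06, the gelatinase Mmp2 by -0.68 ± 0.06 and the basement-membrane collagen Col4a2 by -0.73 ± 0.07, all 4 without overlap. Fn1, which encodes fibronectin, had a smaller difference of -0.30.

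Markers of fibroblasts and reserve cells were lower in part. Of 15 tested markers 8 were called lower (53.3%, against 23.4% of all genes) and 1, the syndecan Sdc4 (0.55 ± 0.08), higher. Their median was -0.20. Without the 100 µM replicate 1 array 4 were lower and the median was -0.12, and with array weights 4 were lower too. Summed over the list, the signal was 27493 to 35579 in replicate 1 and 32487 to 37947 in replicates 2 to 4, so the sums overlapped. Cd34, a surface marker of quiescent satellite and stromal cells, had 107, 131, 145 and 142, against 281, 341 and 376 (-1.35 ± 0.09). The chemokine receptor Cxcr4 differed by -1.06 ± 0.10, the Notch target Heyl by -0.60 ± 0.08 and the pericyte marker Pdgfrb by -0.51. Not called were Pdgfra (-0.55), Vcam1 (-0.07), Itga7 (-0.06), Ncam1 (0.05), Met (0.09) and Fgfr4 (0.18). Cd248, a stromal cell marker outside this list, is named because it was among the 15 largest lower genes. It had 166, 139, 107 and 253, against 396, 485 and 690 (-1.64 ± 0.16). The fibroblast marker Thy1 was under the signal level of the filter on all 16 arrays. What part a different share of mononucleated cells has in the matrix and IGF differences was not tested.

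Genes of ribosome production were mostly higher in replicate 1. Of 28 tested members 22 were called higher (78.6%, against 17.2% of all genes) and 0 lower, with a median of 0.39. For 15 of them, against 9.72% of all genes, the replicate 1 array lay above every other array of its dose at all 4 doses. The summed signal was 29777 to 36830 in replicate 1, against 27357 to 29337, with no overlap. Under quantile normalization the counts were the same, with a median of 0.37.

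Polr1b, the second-largest subunit of the polymerase that transcribes ribosomal RNA, had 351, 321, 295 and 295 in replicate 1, against 158, 193 and 226 as lowest, median and highest in replicates 2 to 4 (0.72 ± 0.09). Nop58, a core protein of the box C/D particles that methylate ribosomal RNA, had 1193, 1185, 1141 and 1834, against 710, 845 and 1098 (0.62 ± 0.10). Gar1, of the box H/ACA particles, had 876, 1105, 1001 and 1230, against 615, 703 and 799 (0.58 ± 0.07). None of the 3 overlapped between the groups, as was the case for 3.97% of all genes in this direction. Rrp1b differed by 0.63 ± 0.08, the small-subunit factors Utp20 by 0.58 and Tsr1 by 0.57, and the transcription factor Myc, which is known to activate this set, by 0.27.

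The cytosolic ribosomal protein genes did not share this direction. Of 34 tested, 13 were called lower (38.2%, against 23.4% of all genes) and 2, Rpl14 (0.35 ± 0.07) and Rpl7 (0.23), higher. Their median was -0.14. That median ran from -0.32 at 0 µM to 0.05 at 1000 µM, and without the untreated replicate 1 array 7 genes were lower, 3 higher and the median -0.07. Quantile normalization gave 9 lower and 6 higher. Rps15, a small-subunit protein, had 5427, 4081, 5606 and 5816 in replicate 1, against 6374, 7715 and 9497 (-0.57 ± 0.08), with no overlap.

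Genes of DNA replication and S phase were also higher. Of 38 tested, 20 were called higher (52.6%, against 17.2% of all genes). The 3 called lower were the polymerase genes Pole (-0.47 ± 0.13) and Pold1 (-0.32) and the clamp loader gene Rfc3 (-0.30). The list median was 0.19, and 0.15 to 0.21 at the 4 single doses. With quantile normalization 16 were higher and 3 lower. The sums of signal were 30603 to 35827 in replicate 1 and 26663 to 30466 in replicates 2 to 4, with no overlap.

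Cdc6, which loads the replicative helicase onto origins, had 188, 189, 127 and 172 in replicate 1, against 60.2, 93.3 and 112 (0.90 ± 0.17), with 5 of the 12 other arrays under the level of the filter. Ccne2, a cyclin of S phase entry, had 347, 326, 264 and 319, against 133, 191 and 232 (0.72 ± 0.11). Mcm4, a helicase subunit, had 1009, 948, 998 and 1314, against 688, 756 and 797 (0.49 ± 0.07). None of the 3 overlapped, whereas Ccne1 (0.77 ± 0.17) was above the other arrays at every dose but overlapped across doses. All 3 other probe sets of Mcm3 (0.45 ± 0.10), a further helicase subunit, were called higher. Pcna, the sliding clamp, was not called, with a difference of -0.01 ± 0.06 whose sign turned under quantile normalization (0.06), and Rrm2, a subunit of ribonucleotide reductase, differed by 0.30.

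The mitosis genes showed no common direction. Of 50 tested, 9 were called higher and 8 lower, and the median was 0.03. Without the 1 µM replicate 1 array 4 were lower, and without the untreated one 5. Among those called higher were the kinase Aurka (0.31 ± 0.07), the motor Cenpe (0.42 ± 0.14) and the cytokinesis protein Anln (0.25 ± 0.04). Among those called lower were the midbody motor Kif23 (-0.48 ± 0.14), the spindle protein Prc1 (-0.34 ± 0.12) and the proliferation marker Mki67 (-0.18 ± 0.07). Mki67 had 1116, 1377, 931 and 949 in replicate 1, within the 861 to 1656 of replicates 2 to 4, and Ccnb1 did not enter the test. Summed mitosis signal was 46723 to 58829 in replicate 1, against 48388 to 57251.

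Regulators of the exit from the cycle were split as well, with 3 of 12 higher (25.0%, against 17.2% of all genes) and 4 lower (33.3%, against 23.4%). Without the 100 or 1000 µM replicate 1 array or the 0 or 100 µM replicate 2 array 2 were lower. The lower count was also 2 without the 1000 µM replicate 4 array. Ccnd1, the cyclin that myoblasts lose as they differentiate, had 1853, 1415, 1387 and 1904, against 983, 1222 and 1322 (0.45 ± 0.06), and both its other probe sets were called higher. Cdkn1c, an inhibitor that myogenic cells raise as they exit, had 147, 161, 162 and 140, against 72.0, 94.2 and 119 (0.67 ± 0.14). Neither overlapped. The inhibitors Cdkn1a (-0.26 ± 0.06), Cdkn1b (-0.27 ± 0.10) and Cdkn2c (-0.14 ± 0.05) and the kinase Cdk4 (-0.22 ± 0.06) were called lower, while the pocket protein Rb1 (0.32 ± 0.05) was called higher. The 1 other probe set of Cdkn1a was called in the opposite direction, so its level has no settled direction here.

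**Figure D2:**
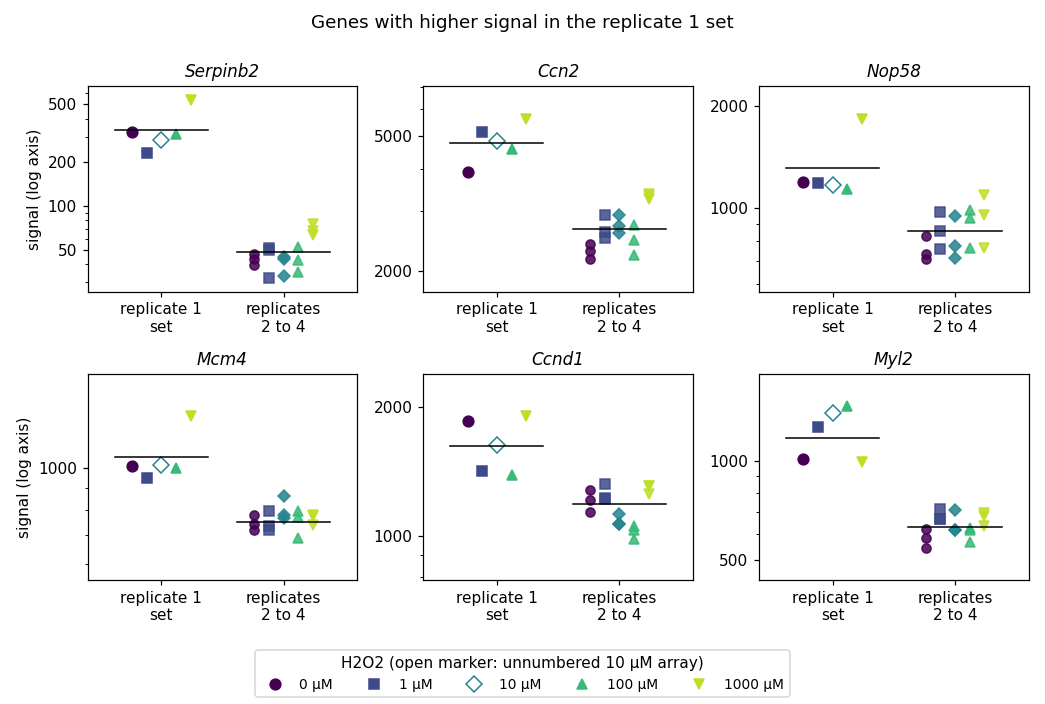
Signal per array on log axes for 6 genes called higher, laid out with the replicate 1 set on the left and replicates 2 to 4 on the right, markers by H2O2 dose and lines at the geometric means of the numbered arrays without 10 µM. In all 6 panels every array of the replicate 1 set lies above every array of replicates 2 to 4, and the gap is widest for Serpinb2.

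Promoters of the replication genes are shown because these genes were higher together and E2F factors are known to bind short motifs in S phase genes. Sequences run from 250 bases before to 50 after the annotated start and come from RefSeq on GRCm38.p6, and capitals mark a match to TTTGGCGC, TTTCGCGC or TTTCCCGC on either strand. Cdc6 (chr11:98907901-98908200, + strand) held 1 match and Mcm3 (chr1:20820263-20820562, - strand) held 2. Both were picked by size of difference among the higher genes whose promoter held a match, so their matches follow from that choice.
Cdc6: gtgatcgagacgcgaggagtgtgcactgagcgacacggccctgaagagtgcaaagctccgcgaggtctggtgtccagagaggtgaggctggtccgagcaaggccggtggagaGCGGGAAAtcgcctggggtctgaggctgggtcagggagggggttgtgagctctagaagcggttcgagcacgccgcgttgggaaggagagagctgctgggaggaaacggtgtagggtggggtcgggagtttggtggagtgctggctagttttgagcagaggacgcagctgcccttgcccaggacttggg
Mcm3: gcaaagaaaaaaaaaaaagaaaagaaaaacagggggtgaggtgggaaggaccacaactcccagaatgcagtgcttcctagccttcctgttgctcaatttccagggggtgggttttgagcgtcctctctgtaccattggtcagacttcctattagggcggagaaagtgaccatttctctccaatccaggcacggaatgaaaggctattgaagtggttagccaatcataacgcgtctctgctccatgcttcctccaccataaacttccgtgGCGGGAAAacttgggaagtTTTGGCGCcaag
Such letters stood in the promoters of 8 of the 18 replication genes called higher that the promoter table holds (44.4%), in 13 of all 32 tested replication genes it holds (40.6%) and in 573 of all 27025 genes (2.12%). Among the mitosis genes, 3 of 42 held them (7.14%). A match is a run of letters and not a shown binding site.

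Promoters of 2 ribosome production genes are shown for the letters CACGTG, the E-box that MYC and the clock factors can bind and that reads the same on both strands. Utp20 lies at chr10:88826765-88827064 on the - strand and Tsr1 at chr11:74897830-74898129 on the + strand, and each held 1 match. They too were picked among the higher genes whose promoter held a match.
Utp20: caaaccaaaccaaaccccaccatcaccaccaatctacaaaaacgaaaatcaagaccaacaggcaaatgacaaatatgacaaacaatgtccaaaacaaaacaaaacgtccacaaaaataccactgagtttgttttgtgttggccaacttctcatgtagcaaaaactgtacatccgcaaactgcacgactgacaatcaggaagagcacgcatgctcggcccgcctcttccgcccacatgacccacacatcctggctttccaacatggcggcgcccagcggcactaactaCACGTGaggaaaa
Tsr1: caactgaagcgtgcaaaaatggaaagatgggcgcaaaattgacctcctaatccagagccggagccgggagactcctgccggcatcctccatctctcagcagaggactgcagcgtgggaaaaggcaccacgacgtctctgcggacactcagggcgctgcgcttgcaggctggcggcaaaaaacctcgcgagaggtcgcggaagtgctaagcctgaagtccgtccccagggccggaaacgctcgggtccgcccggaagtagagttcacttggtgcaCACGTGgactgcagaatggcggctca
CACGTG stood in 4 of the 20 higher ribosome production genes with a promoter in the table (20.0%), in 5 of the 23 tested ones (21.7%) and in 2187 of 27025 genes (8.09%).

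Clock genes were lower in replicate 1. Of 13 tested, 7 were called lower (53.8%, against 23.4% of all genes) and 0 higher, with a median of -0.27. For 3 of the 13, against 13.7% of all genes, the replicate 1 array lay below every other array of its dose at all 4 doses. Dbp, an output factor of the clock, had 112, 116, 102 and 139, against 169, 225 and 277 (-0.88 ± 0.11), and its other probe set was lower too. Nr1d1, the repressor REV-ERB alpha, had 196, 157, 244 and 151, against 258, 290 and 343 (-0.68 ± 0.10). Neither overlapped between the groups. Per1 (-0.71 ± 0.21) and Bhlhe41 (-0.74 ± 0.26), both negative regulators of the clock, were dimmer and overlapped, with Bhlhe41 at 34.7 in the untreated replicate 1 array and at 76.8 to 143 in the other 3. The activators were not called: Clock differed by 0.06 and Arntl by -0.16. Without the 1000 µM arrays 4 of the 13 were called lower, and without the untreated replicate 1 array 5.

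The 2 lower clock genes with CACGTG in their promoters were Bhlhe41 (chr6:145865371-145865670, - strand) and Per1 (chr11:69098699-69098998, + strand), shown for comparison with the higher genes above, with 1 match each in capitals.
Bhlhe41: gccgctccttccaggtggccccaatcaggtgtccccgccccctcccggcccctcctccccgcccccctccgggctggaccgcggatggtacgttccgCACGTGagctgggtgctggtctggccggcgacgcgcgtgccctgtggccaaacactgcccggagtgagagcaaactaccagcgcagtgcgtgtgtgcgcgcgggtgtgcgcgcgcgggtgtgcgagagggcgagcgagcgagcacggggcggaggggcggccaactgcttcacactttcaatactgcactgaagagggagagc
Per1: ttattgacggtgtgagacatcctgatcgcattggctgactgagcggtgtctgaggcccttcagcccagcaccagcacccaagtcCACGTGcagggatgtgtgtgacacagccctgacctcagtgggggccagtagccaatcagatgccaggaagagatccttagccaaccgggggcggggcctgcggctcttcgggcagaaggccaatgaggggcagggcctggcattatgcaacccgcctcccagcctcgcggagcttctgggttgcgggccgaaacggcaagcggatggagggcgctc
The letters stood in 2 of the 6 lower clock genes with a promoter in the table (33.3%) and in 4 of the 12 tested ones (33.3%), so both higher and lower genes held them.

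Contractile and myogenic genes split in both directions. Of 37 tested sarcomere genes 12 were called higher and 9 lower in replicate 1, with a median of -0.01, which was 0.09 under quantile normalization. The summed signal of all 39 sarcomere genes on the array was 162891 to 217505 in replicate 1 and 173180 to 213700 in replicates 2 to 4. Myl2, the slow regulatory myosin light chain, had 1017, 1270, 1471 and 995, against 541, 629 and 713 (0.89 ± 0.08), and Myh7, the slow myosin heavy chain, had 2275, 2133, 2110 and 1960, against 1231, 1506 and 1711 (0.50 ± 0.06). Neither overlapped. The fast heavy chain Myh1 was also higher (0.38 ± 0.06), the fast heavy chain Myh4 lower (-0.53 ± 0.10), and the giant filament Ttn higher (0.70 ± 0.09).

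Des, the muscle intermediate filament, had 5307, 5494, 4534 and 5241 in replicate 1, against 5730, 6712 and 7915 (-0.40 ± 0.07), and the fast light chain Mylpf differed by -0.39 ± 0.07. Ttn overlapped across doses, Des did not. Embryonic heavy chain Myh3 was not called (-0.10 ± 0.06). The master regulators were not called either, with Myod1 at 0.03 ± 0.08, a sign that turned without the 1000 µM arrays (-0.02), and Myog at 0.10 ± 0.05. Of 15 tested myogenic regulators and fusion genes, 3 were higher and 3 lower. Tead4 (0.42 ± 0.10), Rb1 and Mef2a (0.24 ± 0.05) were the higher ones, and the regulators Myf5 (-0.35 ± 0.09) and Myf6 (-0.49 ± 0.17) and the cadherin Cdh15 (-0.21 ± 0.08) the lower ones.

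Of 28 calcium, synapse and energy genes of muscle 10 were called higher and 6 lower. Their median was 0.10, but -0.08 at 1000 µM and 0.00 without the 1 µM replicate 1 array. Trdn, which anchors the calcium store to the release channel, had 266, 288, 252 and 216, against 96.8, 143 and 186 (0.89 ± 0.14), and 2 of its 3 other probe sets were called higher. The voltage sensor Cacna1s (0.39 ± 0.06), its partner Cacnb1 (0.41 ± 0.06), the receptor subunit Chrnb1 (0.36 ± 0.07) and the creatine kinase Ckm (0.32 ± 0.07) were higher. The calcium buffer Casq1 (-0.36 ± 0.05), the glycolytic mutase Pgam2 (-0.35 ± 0.08) and the respiratory subunit Cox8b (-0.57 ± 0.08) were lower, and Casq1 and Cox8b did not overlap. The muscle lists thus held called genes in both directions. Higher and lower shares were 32.4% and 24.3% for sarcomere genes and 20.0% and 20.0% for myogenic regulators and fusion genes. For the calcium, synapse and energy genes they were 35.7% and 21.4%. Over all genes they were 17.2% and 23.4%, so the lower shares lay near that of all genes.

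Genes of the serum response were split, and those of the actin cytoskeleton were mostly lower or not called. Of 30 tested immediate early genes 11 were called higher (36.7%, against 17.2% of all genes) and 5 lower (16.7%, against 23.4%). Their median was -0.01, from -0.20 at 0 µM to 0.22 at 100 µM. The counts rested on single arrays, with 6 higher and 3 lower without the 1 µM replicate 1 array and 7 and 6 without the 100 µM one. They were 9 and 2 without the untreated one and 11 and 3 without the 1000 µM one. Fosl1, a FOS family member, was higher (0.72 ± 0.14), as were Fos (0.54 ± 0.16) and Atf3 (0.88 ± 0.26), whose signals spanned 24.8 to 715 in replicates 2 to 4. Of 22 cytoskeletal targets of SRF and YAP, 12 were lower (54.5%, against 23.4% of all genes) and 3 higher. The median was -0.24, but 0.00 at 1000 µM. Zyx, a focal adhesion protein, had 3373, 4064, 3950 and 4282, against 5694, 6560 and 7182 (-0.71 ± 0.06), and the filamin Flna differed by -0.44 ± 0.07. Ccn2, a matricellular YAP target on the same list, went the other way with 3908, 5141, 4590 and 5625, against 2173, 2555 and 3368 (0.84 ± 0.06). Zyx, Flna and Ccn2 did not overlap.

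Serpinb2, an inhibitor of plasminogen activators, had the largest difference among genes above the filter level on all 4 replicate 1 arrays, with 323, 230, 313 and 535, against 32.4, 48.7 and 75.2 (2.78 ± 0.18). All 12 arrays of replicates 2 to 4 were under the level of the filter, so it was tested only because replicate 1 was high. The same held for most of the 15 largest higher differences: 10 or more of the 12 other arrays were under that level for 13 of them, among them Ppp1r17 (4.01 ± 0.85), and the size of such a difference depends on signals near background. The exceptions were Lce1h, with 6 such arrays, and Myhas, a non-coding RNA gene of the myosin heavy chain cluster, with none. Myhas had 1468, 1604, 1737 and 1452, against 314, 555 and 698 (1.57 ± 0.16), with no overlap.

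Among the 15 largest lower differences, 11 belonged to genes under the filter level on all 4 replicate 1 arrays, and 2, Ptk7 and Gpr153, to genes under it on 3. Cd248 and Igfbp2 were above it throughout. C1qtnf1, a secreted C1q-like protein, had 12.5, 9.3, 9.7 and 20.7 in replicate 1, against 124, 158 and 196 (-3.68 ± 0.19). Sod3, the extracellular superoxide dismutase, had 41.2, 48.4, 7.1 and 53.8, against 141, 201 and 239 (-2.68 ± 0.28). Both were under the filter level on all 4 replicate 1 arrays and above it on all 12 others.

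In the signalling lists, Tgfb1 had 898, 834, 1059 and 949, against 1237, 1599 and 1721 (-0.75 ± 0.07), while Grem1, a secreted inhibitor of bone morphogenetic proteins, had 591, 924, 685 and 994, against 332, 408 and 503 (0.92 ± 0.11). Neither overlapped. Of 15 tested TGF-beta and BMP genes 5 were lower (3 without the untreated replicate 1 array) and 3 higher, with Bmp4 (-0.72 ± 0.10) lower and the BMP target Id1 (0.24) higher. Of 11 Notch genes Heyl and Notch3 (-0.20 ± 0.06) were lower and the ligand Dll1 (0.23 ± 0.08) higher. The TGF-beta and BMP list thus had 33.3% lower and 20.0% higher, and the Notch list 18.2% and 9.09%. Over all genes these shares were 23.4% and 17.2%.

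Metabolic lists were lower in part. Of 23 tested glycolysis and hypoxia genes 12 were lower (52.2%, against 23.4% of all genes) and 4 higher (17.4%, against 17.2%). The median was -0.19. The hypoxia gene Ndrg1 (-0.56 ± 0.06) was lower on all 5 of its probe sets and the hexokinase Hk2 (0.44 ± 0.07) was higher. Of 56 oxidative phosphorylation subunits 20 were lower (35.7%, against 23.4% of all genes) and 1, Ndufa9 (0.18), higher, with a median of -0.11. Under quantile normalization the median was -0.04, with 13 lower and 5 higher. Without the 100 µM replicate 1 array 13 were lower. Of 31 proteasome subunits 11 were lower (35.5%, against 23.4% of all genes) and 2 higher. These counts were 6 and 5 without the untreated replicate 1 array. Of 9 FOXO, autophagy and atrophy genes 6 were lower (66.7%, against 23.4% of all genes) and 0 higher. The autophagy protein Map1lc3b had 1760, 2306, 1842 and 2267, against 2754, 3009 and 3734 (-0.61 ± 0.06). The ubiquitin ligase Fbxo32 differed by -0.34 ± 0.12. Of 19 cholesterol genes 5 were lower (26.3%, against 23.4% of all genes) and 2 higher, with a median of 0.04, and 4 were lower and 5 higher without the 1 µM replicate 1 array. The higher count was also 5 without the 1 µM replicate 4 array, and 4 without the 1000 µM replicate 1 or the 100 µM replicate 2 array.

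**Figure D3:**
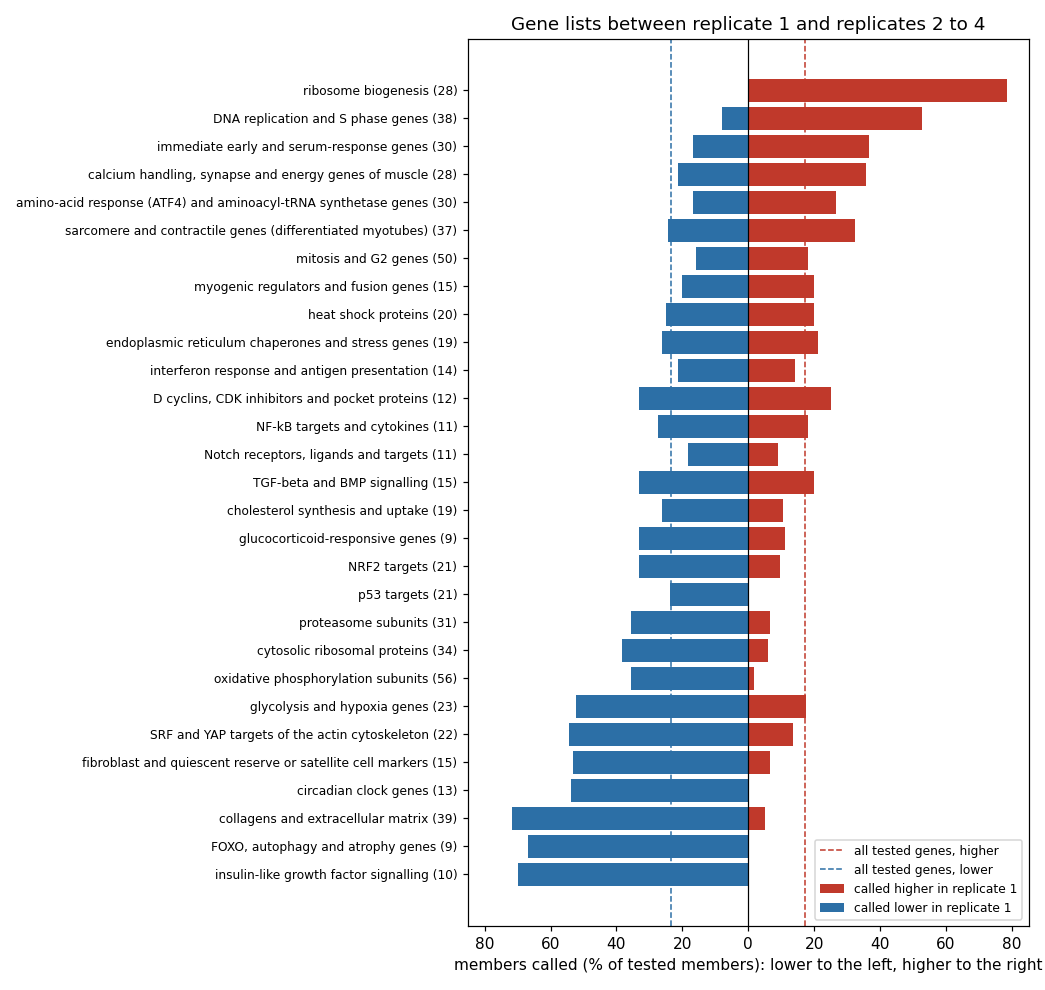
Share of tested members called higher (right) and lower (left) in replicate 1 against replicates 2 to 4, in percent, for the lists with at least 9 tested members (number in brackets), with dashed lines at the shares over all 8159 genes, 17.2% higher and 23.4% lower. Ribosome production stands at 78.6% higher, and IGF signalling and the matrix at 70.0% and 71.8% lower.

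Stress genes that H2O2 is known to act on were mixed in this comparison. Of 21 tested NRF2 targets 7 were lower (33.3%, against 23.4% of all genes) and 2, Srxn1 (0.35) and Gclc (0.33), higher. The glutathione transferase Gstm2 had 199, 128, 166 and 143, against 248, 290 and 312 (-0.87 ± 0.09), and the metallothionein Mt1 had 2049, 2172, 2570 and 2583, against 2815, 3368 and 3650 (-0.48 ± 0.05), both without overlap. Of 21 p53 targets 5 were lower (23.8%, against 23.4% of all genes) and 0 higher, or 4 and 3, with a median of 0.00, without the 1000 µM replicate 1 array. Mdm2 (0.06 ± 0.10) was not called. Of 30 amino acid response genes 8 were higher (26.7%, against 17.2% of all genes) and 5 lower (16.7%, against 23.4%). Without the 100 µM replicate 1 array these were 8 and 8. The mitochondrial serine enzyme Shmt2 had 2074, 2008, 2257 and 2263, against 1265, 1360 and 1590 (0.63 ± 0.05). The chaperone lists were split, with 4 higher and 5 lower of 19 endoplasmic reticulum genes and 4 higher and 5 lower of 20 heat shock genes. These were 21.1% and 26.3% of the first list and 20.0% and 25.0% of the second, against 17.2% and 23.4% of all genes. In the first, 3 were lower without the untreated replicate 1 array and 2 higher without the 1 µM one. In that list the ER membrane protein Herpud1 (0.69 ± 0.06) and the chaperone Hyou1 (0.48 ± 0.06) were higher, and in the heat shock list Hsph1 (0.51 ± 0.06).

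Markers of other cell types were mostly dim. Of 11 leukocyte markers 6, Ptprc, Cd68, Itgam, Cd3e, Cd79a and Tyrobp, were under the level of the filter on all 16 arrays, 3 were tested and 1, Cd14 (-0.84 ± 0.12), was called lower. The summed leukocyte signal was 600 to 936 in replicate 1 and 558 to 921 in replicates 2 to 4. Of 11 adipocyte markers on the array, Pparg, Fabp4, Adipoq, Lep and Pck1 were under that level throughout, and of 6 tested ones Cebpa (-1.12 ± 0.16), Lpl (-0.86 ± 0.16) and Scd1 (-0.42 ± 0.05) were lower. Not called were Cd36 (0.21), Fasn (0.19) and Dgat2 (0.18). The summed signal of the 11 adipocyte markers was 7162 to 8095 in replicate 1, against 8315 to 9626. Of 10 bone and cartilage markers 6 were under that level throughout, and Mgp, a calcification inhibitor also made by fibroblasts, had 2850, 3611, 3806 and 5546, against 6048, 7058 and 8102 (-0.90 ± 0.09). The part of other cell types in the differences was not tested. The interferon list gave 3 of 14 lower (21.4%, against 23.4% of all genes), H2-K1, H2-D1 and B2m, or 5 without the 100 µM replicate 1 array. It gave 2 higher (14.3%, against 17.2%), Ifi47 and Dhx58. Of its 31 members on the array, 14 were under the level on all 16 arrays. H2-K1 read 26.0, 129, 189 and 160 in replicate 1, lowest in the untreated array. None of its 3 other probe sets was called, whereas all 3 other probe sets of H2-D1 were called lower.

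Probe sets of a gene did not always share a direction or a call. Among genes named above, Zyx, Des, Mt1, Myh1, Fosl1, Rrp1b, Cacnb1 and Kif23 have further probe sets, and none of these was called. Of 900 genes with at least 2 called probe sets, 355 had all of them higher, 340 all lower and 205 (22.8%) some in each direction. By design class, 33.5% of the 1090 tested probe sets with the suffix _x_at, whose probes can match other transcripts, were higher and 12.5% lower. For the 9170 with the suffix _at the shares were 17.9% and 21.3%. In the brightest of 3 equal signal classes 20.4% were higher and 28.5% lower, and in the dimmest 15.2% and 16.3%.

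Control probe sets did not enter the choice of arrays. The 3' minus 5' difference of Gapdh, a measure of RNA and cDNA integrity, was -0.34, -0.41, -0.18 and -0.29 in replicate 1 at 0, 1, 100 and 1000 µM, and -0.36 to -0.25 with a median of -0.31 in replicates 2 to 4. The groups differed by 0.01 (exact permutation test within doses, two-sided, p = 0.793, adjusted over 6 measures 0.793). For beta-actin the values were -0.11, 0.27, 0.11 and 0.22, against 0.08 to 0.19 (difference -0.01, exact p = 0.785, adjusted 0.793). The replicate 1 arrays thus spread more widely than the others on both measures, with standard deviations of 0.10 against 0.03 for Gapdh and 0.17 against 0.03 for actin. Of the hybridisation spikes, bioC was 0.26 higher (exact p = 0.0352, adjusted 0.164), and bioB, bioD and cre differed by 0.23, 0.22 and -0.13 (adjusted exact p = 0.164, 0.164 and 0.445). The smallest p this design allows is 0.00391.

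The bacterial transcripts dap, lys, phe and thr, meant to be added to RNA before labelling, were looked at after their values had been seen and are given without a test. The dap 3' minus 5' difference was 0.66, 0.82, 1.10 and 1.06 in replicate 1 and 1.00 on the unnumbered array, against 1.11, 1.51 and 1.94 as lowest, median and highest in replicates 2 to 4. On a second pair of dap probe sets it was 0.25, 0.05, 0.40 and 0.41, with 0.25 on the unnumbered array, against 0.70, 1.04 and 1.39. Neither pair overlapped. The dimmer thr parted the groups on 1 pair (0.19 to 0.37, against 0.49 to 1.32) and overlapped on the other, and lys and phe overlapped on both pairs. What part sample labelling has in the gene differences was not tested.

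**Figure D4:**
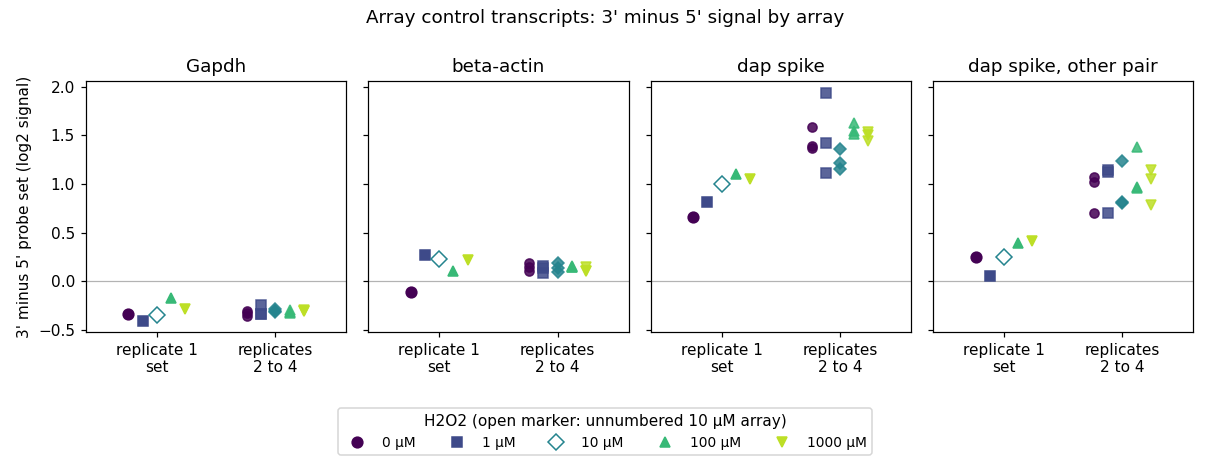
The 3' minus 5' log2 signal difference per array for Gapdh, beta-actin and both probe set pairs of the dap spike, with the replicate 1 set on the left and replicates 2 to 4 on the right, markers by H2O2 dose. The groups overlap for Gapdh and beta-actin, and on both dap pairs all arrays of the replicate 1 set, the open 10 µM marker included, lie below all others.

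The response to H2O2 was compared between replicate 1 and replicates 2 to 4 as an interaction, a contrast across doses that the mean level difference does not enter. The response was the dose minus the mean of 0 and 1 µM, and both doses share the 0 and 1 µM arrays. Each dose has 1 array in replicate 1, so the fit takes its spread from replicates 2 to 4 and assumes that replicate 1 varies alike. The control measures above spread more widely in replicate 1, and its arrays weighed 0.315 to 0.508 when limma estimated array weights. The lowest weight of all, 0.308, was that of the 1 µM replicate 2 array. The other arrays of replicates 2 to 4 weighed 0.834 to 1.98. The p-values of the interactions leave the wider spread of replicate 1 out and may be too small. At 1000 µM limma called 247 of 14379 probe sets (1.72%), 147 (1.02%) more positive in replicate 1 and 100 (0.695%) more negative. At 100 µM there were 404 (2.81%), 225 (1.56%) positive and 179 (1.24%) negative. For 1 µM minus untreated, a comparison added after seeing the data, there were 688 (4.78%), 333 positive and 355 negative. More probe sets were thus called between the untreated and 1 µM arrays than at either high dose. Leaving out single arrays moved the count of positive interactions between 49 and 493 at 1000 µM and between 85 and 511 at 100 µM.

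The 1 minus 0 µM difference had a standard deviation over probe sets of 0.449 in replicate 1, against 0.393, 0.304 and 0.328 in replicates 2, 3 and 4. The 1000 minus 0 µM difference had 0.523 in replicate 1, against 0.404, 0.372 and 0.377. Across probe sets, which are not independent, it correlated at 0.435 with the mean of replicates 2 to 4 for replicate 1, and at 0.578 to 0.606 for each of the others with the mean of the rest.

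Genes known to respond to H2O2 had positive responses in replicate 1 as well. Hmox1, the haem oxygenase induced by NRF2, had a response at 100 µM of 1.94 in replicate 1, against 1.77, 2.21 and 2.29 in replicates 2, 3 and 4 (limma interaction, adjusted p = 0.708). At 1000 µM its response was 1.04, against 1.77, 1.67 and 1.71 (difference -0.68 ± 0.19, adjusted p = 0.0875). The p53 target Mdm2 had 1.95 at 100 µM, against 1.47, 1.29 and 1.25 (difference 0.61 ± 0.14, adjusted p = 0.0402), and leaving out single arrays moved that p between 0.0025 and 0.439. Cdkn1a, another p53 target, had 0.37, against 0.21, 0.32 and 0.28 (adjusted p = 0.621).

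The ribosomal protein gene Rpl41 had the interaction with the brightest signal among the named ones. Its probe set read 4844, 8064, 14080 and 20430 in replicate 1 at 0, 1, 100 and 1000 µM, so the response at 1000 µM was 1.71, against -0.12, 0.17 and 0.03 in replicates 2 to 4 (difference 1.69 ± 0.13, adjusted p = 2.9e-05). This was an _x_at probe set, and of its 3 other probe sets 1 was called. The highest signals of the replicate 1 arrays at these doses were 11649, 15334, 14080 and 21256. The Rpl41 signal at 100 µM was thus the highest on its array. What part the bright end of the arrays has in this response was not tested. Skp2, a ubiquitin ligase subunit that clears Cdkn1b, read 600, 558, 219 and 246 in replicate 1, and its response at 100 µM was -1.40, against 0.12, -0.34 and -0.25 (difference -1.24 ± 0.28, adjusted p = 0.0357, and 0.00531 to 0.073 when single arrays were left out), with none of its 5 other probe sets called.

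**Figure D5:**
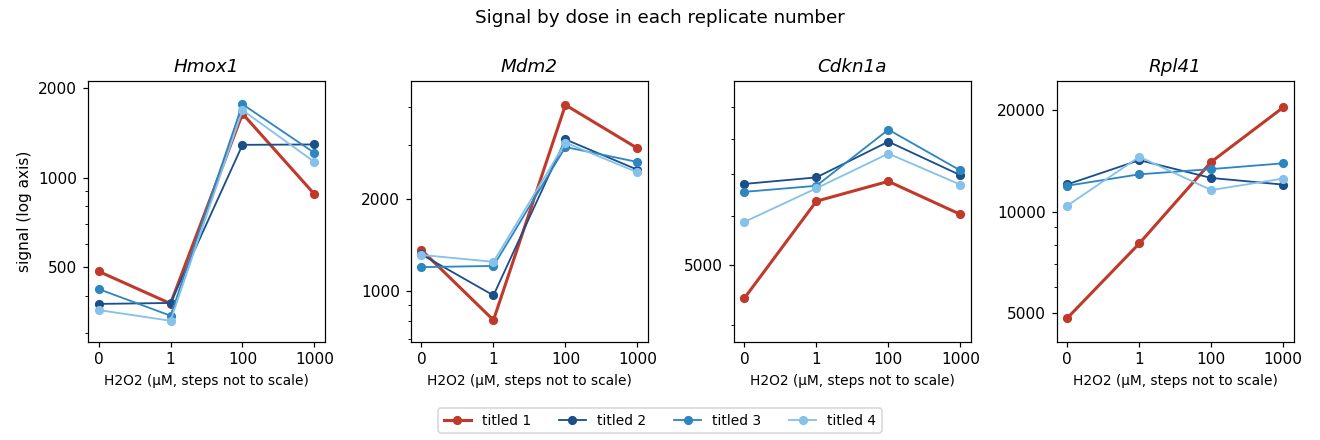
Signal on a log axis against H2O2 dose in µM for Hmox1, Mdm2, Cdkn1a and Rpl41, with 1 line per replicate number and replicate 1 in red. Hmox1 and Mdm2 rise at 100 µM in all 4 numbers, and Rpl41 climbs to 20430 at 1000 µM in replicate 1 alone.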

How the data were processed

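Per the labels, the RNA of each sample was hybridised to 1 Affymetrix array. The authors deposited 1 linear signal intensity per probe set and array, computed with MAS 5 per the submitters' processing notes. The deposited intensities had 2% trimmed means of 500.1 to 500.2. They were set to a floor of 1 and taken as log2 values. Of 22690 probe sets, 64 were controls, 20393 had 1 gene symbol in the platform annotation, 691 several and 1606 none, and only those with 1 were named. Probe sets above the 40th percentile of their array (77.7 to 106.5) on at least 4 arrays were kept, 14379 of them, for 8159 genes. limma 3.58.1 (R 4.3.3) fitted replicate 1 against replicates 2 to 4 with dose as a factor, and a second fit gave the interactions, with Benjamini-Hochberg adjustment over all tested probe sets. The number of arrays limits the precision.

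The arrays, gene lists and named genes were chosen with earlier results of these data known. Named genes were the 15 largest called differences each way, list members by size of difference, fixed muscle, cycle and stress genes, and the largest interactions. Other list members were named after their values were seen. Arrays titled 2, 3 and 4 with the same number did not deviate together (correlations of -0.187 to 0.0467), so the numbers were not taken to pair samples. The fits were tested on simulated data. Changes of 0.5 and 1 between the groups were recovered in 65% and 92% of cases. Interactions of 1 and 2 at 1000 µM were recovered in 48% and 87%. Each probe set had the same simulated noise level on all arrays, so these rates leave out the wider spread of replicate 1. Alternatives were quantile normalization, centring, other filters and floors, array weights, all 20 arrays, a replicate block and single arrays left out.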

Additional observations from a re-analysis of the deposited data

Results flagged for a closer look

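The response to 1000 µM H2O2 was called different between replicate 1 and replicates 2 to 4 by the interaction test for 12 named genes. It was more positive in replicate 1 for Anpep (2.59), Xylt2 (2.34), Dock6 (2.31), Trpv2 (2.29), Ttf1 (1.74) and Rpl41 (1.69). It was more negative for Trpv6 (-4.31), Clasrp (-2.64), Il17re (-2.49), Slc14a2 (-2.12), Snx30 (-1.85) and Castor2 (-1.83). At 100 µM it was more positive for Xylt2 (2.64), Cxcl16 (2.56), Trpv2 (2.39), Plk3 (2.35), Hfe (2.30) and Tom1l1 (2.15), and more negative for Trpv6 (-3.72), Sod3 (-2.40), Rasa4 (-2.02), Apcdd1 (-1.68), Nudt6 (-1.41) and Skp2 (-1.24). These are differences of log2 responses. Each replicate 1 response rests on 1 array at the dose, whose own spread the test does not measure. Many rest on dim signals: in the untreated replicate 1 array Xylt2 read 7.7, Trpv2 11.7, Anpep 13.0, Hfe 16.9 and Tom1l1 17.0. Sod3 read 7.1 at 100 µM, and with a floor of 50 its difference was 0.255, of the opposite sign, with an adjusted limma p of 0.687. When single arrays were left out, Cxcl16 lost its call in 10 of 15 cases, Hfe in 9, Il17re in 8 and Skp2 in 7.

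In 10 of 205 named genes the difference at 1 dose lay far from those at the other 3, measured as the gap to the nearest over the whole range. Chance gives this in about 1 in 20 groups. The ratio was 0.942 for Myod1, 0.929 for Postn, 0.904 for Sod3, 0.832 for Pdia4 and 0.829 for Rasa4, all at 100 µM. It was 0.869 for Dcn, 0.869 for Ndufa4 and 0.859 for Ncapd2 at 0 µM, and 0.887 for Dpf3 and 0.855 for Igfbp4 at 1000 µM. Myod1 differed by -0.39 at 100 µM and by 0.15 to 0.19 at the other doses.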

How the results depend on the processing

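The counts of level differences, 2754 higher and 3041 lower, were 1537 and 1895 with array quality weights, in which the replicate 1 arrays weighed 0.315 to 0.508. Among replicates 2 to 4 the 1 µM replicate 2 array weighed 0.308 and the others 0.834 to 1.98. Without the filter 4814 were higher, 61% of the calls against 47.5%, and the median of all probe sets was 0.113. Single arrays left out gave 2227 to 2972 higher and 2630 to 3133 lower.

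The interaction counts moved more. At 1000 µM the positive and negative counts, 147 and 100, were 60 and 53 without the filter, 393 and 327 with weights, and 334 and 201 with the untreated arrays alone as the base. The negative count was 166 under quantile normalization and the positive count 55 with all 20 arrays. At 100 µM the counts, 225 and 179, were 390 and 376 under quantile normalization, 95 and 105 without the filter, and 500 and 436 with weights. The positive count was 127 with all 20 arrays and 136 with the replicate block, which gave 3588 higher and 3801 lower levels. Single arrays left out gave 49 to 493 and 38 to 302 at 1000 µM, and 85 to 511 and 75 to 474 at 100 µM. The highest counts came without the 1 µM array of replicate 1 (493 and 284, then 462 and 328) or of replicate 2 (342 and 302, then 511 and 474). Counts also moved by over 1.5 times without the 0 µM arrays of replicates 1, 2 or 3 and any 100 or 1000 µM array of replicates 2 to 4. The causes were not tested.

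The Sod3 response at 100 µM, -2.40 and called, was 0.255 with a floor of 50, which lies above its signal of 7.1. Some small differences also changed sign. With all 20 arrays Gapdh 3' minus 5' differed by -0.002, beta-actin by 0.008, Myod1 by -0.021, Hmox1 by -0.051 and the Hmox1 response at 100 µM by 0.023. Myod1 was -0.017 without 1000 µM, Pcna 0.065 under quantile normalization and 0.011 with weights, and Hmox1 -0.006 with centring and -0.024 with weights. The Cdkn1a response at 1000 µM was -0.029 under quantile normalization. With 1 array or dose left out, the ranges were -0.033 to 0.047 for Gapdh, -0.066 to 0.07 for beta-actin, -0.261 to 0.015 for cre, -0.027 to 0.164 for Myod1, -0.1 to 0.084 for Pcna, -0.095 to 0.168 for Hmox1 and -0.062 to 0.241 for Mdm2. For the responses they were -0.331 to 0.029 for Hmox1 at 100 µM, and for Cdkn1a -0.162 to 0.359 at 100 µM and -0.15 to 0.371 at 1000 µM.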
